A study of Mus musculus with 12 samples.

Results

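The data described here are the 6 in vivo libraries of a series of 12, in which *Rad21* was knocked down in mouse LSK cells and the cells were recovered after transplantation. LSK cells are the lineage-negative, Sca-1+, c-Kit+ fraction of bone marrow that holds the hematopoietic stem cells and the multipotent progenitors. LSK cells of strain C57BL/6 were infected with a lentivirus that carried EGFP and a short hairpin RNA against *Rad21* (shRad21, 3 libraries) or against luciferase (shLuci, the control, 3 libraries), and went, mixed with LSK cells of that culture that had not been infected, into recipient mice given a lethal dose of radiation. GFP+ LSK cells were then sorted from the recipients, 3 mo after transplantation by the sample labels and 4 mo by the study's methods. All 6 libraries were chosen by their labels, and both groups therefore share infection, culture, irradiation of the host, and repopulation. The cells measured are those that engrafted and kept GFP, the host and the noninfected donor cells remain around them, and the ages and sexes of the mice and the hairpin used (the methods list several against *Rad21*) are not given in the sources used here. Nothing in the labels says whether a library is a mouse or a pool, so the p-values measure the spread between these libraries, which may be technical.

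RAD21 is the subunit that closes the cohesin ring, which holds sister chromatids together until anaphase and extrudes loops of chromatin between enhancers and promoters in interphase. In the LSK fraction, the most primitive cells carry CD150 (*Slamf1*) and lack CD48 and FLT3, part of the stem cells express platelet genes such as *Vwf*, and the FLT3-high progenitors begin to transcribe lymphoid genes. With age, the mouse stem cell pool grows and gains CD150 and platelet genes while lymphoid output falls.

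Libraries held between 18743190 and 21565470 counts on genes, with 2.88% to 3.20% of them on the 10 most abundant genes. The first principal component of log2 CPM (counts scaled to 1000000 per library) carried 45.1% of the variance and separated the 3 shRad21 from the 3 shLuci libraries. The second carried 19.3% and set shLuci 1 (45.1) apart from shLuci 2 (-28.1) and shLuci 3 (-17.8). Libraries shLuci 2 and shLuci 3 had counts on 26938 and 25108 genes, against 21657 to 23217 in the other 4, and both held more immunoglobulin transcripts, as described with the B-cell genes. The variance between replicates was 8.24 to 15.9 times that of sampling alone by a chi-square statistic, and for genes with many counts the depth was therefore not the limit. A floor of 3 counts corresponded to 0.139 to 0.160 CPM per library and covers counting error only.

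*Rad21* was lower in every shRad21 library than in every shLuci library. It stood at 124, 133, and 131 CPM in shLuci and 46.1, 51.4, and 46.5 CPM in shRad21. This was a log2 fold change of log2 fold change -1.43 ± 0.07 SE, adjusted p = 8.82e-06, where the adjusted p, here and in all that follows, is that of the edgeR quasi-likelihood test, corrected over all genes tested by Benjamini-Hochberg. The remaining level was 37.2% of the control over the sorted cells as a whole, so part of the transcript remained. How it was spread over single cells cannot be told from bulk libraries. Of the 18 genes of cohesin and its regulators, 17 were tested. *Stag1*, a subunit that alternates with *Stag2* in the ring, was the only other ring gene past the threshold and rose, with 128, 128, and 111 CPM in shLuci and 148, 175, and 148 CPM in shRad21 (log2 fold change 0.36 ± 0.09 SE, adjusted p = 0.0285). That call was lost without shLuci 2, shLuci 3, shRad21 2, or shRad21 3. *Stag2* stood at 183, 187, and 172 CPM in shLuci and 139, 203, and 165 CPM in shRad21, and its groups overlapped. *Cdca5*, which encodes sororin, the protector of cohesion in G2 phase, fell (log2 fold change -0.49 ± 0.08 SE, adjusted p = 0.00398). The core subunits *Smc1a* (log2 fold change -0.04 ± 0.06 SE, adjusted p = 0.705) and *Smc3* (-0.13 ± 0.06 SE, adjusted p = 0.204) did not pass the test.

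Of 15938 genes tested, 1749 (11.0%) passed an adjusted p of 0.05, 901 of them higher (5.65%) and 848 lower (5.32%) in shRad21. The median log2 fold change of all genes tested was -0.00192, and 4646 of all genes (29.2%) had CPM that did not overlap between the groups. The median of the group means was 16.1 CPM in shLuci and 31.4 CPM in shRad21 for the higher genes, and 47.5 CPM and 27.7 CPM for the lower genes. A split by direction by itself lowers the shLuci level of the higher genes and raises that of the lower genes. More than 2-fold changes made up 363 of the higher and 303 of the lower genes, and more than 4-fold changes 112 and 115. The number of calls depended on single libraries: without shRad21 3 it was 951 (495 higher, 456 lower), without shRad21 1 it was 1140, with 524 lower, and without shLuci 2 the lower genes numbered 555. In all 6 fits that left out 1 library, 435 of the higher and 391 of the lower genes were called. Of the genes printed below, 10 share over 10% of their exonic length with another annotated gene, and the reads of these are uncertain: *H2-Oa*, *Csf1r*, *Tmem47*, *Selp*, *Klrb1c*, *Sbspon*, *H2-DMa*, *P3h2*, *Cnn3*, and *Itgad*.

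**Figure D1:**
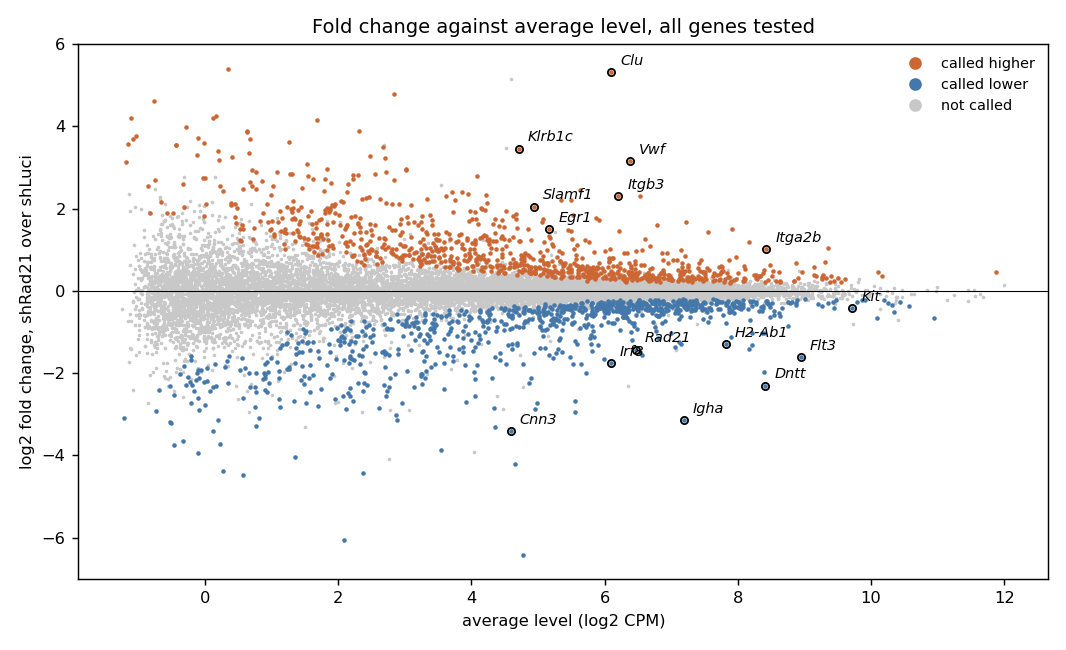
Fold change of each of the 15938 genes tested against its average level. The x axis is the log2 of the average CPM over all 6 libraries and the y axis the log2 fold change of shRad21 over shLuci. Genes past the adjusted p of 0.05 are in orange (901 higher) and blue (848 lower) and all others in gray. *Clu* (5.32) and *Vwf* (3.16) stand far above other genes of their level, *Flt3* (-1.61) and *Dntt* (-2.30) far below, and 2 immunoglobulin genes with no count in shRad21 lie under the lower limit of the plot.

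The surface genes that divide the LSK gate moved in opposite directions. *Slamf1*, which encodes CD150, stood at 11.6, 11.5, and 12.6 CPM in shLuci and 54.5, 49.6, and 43.6 CPM in shRad21, a 4.13-fold rise (log2 fold change 2.05 ± 0.12 SE, adjusted p = 2.18e-05). *Flt3*, the receptor that marks the lymphoid-primed progenitors, stood at 724, 756, and 739.9 CPM in shLuci and 205, 246, and 278 CPM in shRad21, a 3.05-fold fall (log2 fold change -1.61 ± 0.10 SE, adjusted p = 2.48e-05). Neither gene's groups came near each other. Both genes of the sort itself were measured: *Ly6a*, which encodes Sca-1, stood at 145, 147, and 172 CPM in shLuci and 192, 226, and 215 CPM in shRad21 (log2 fold change 0.45 ± 0.09 SE, adjusted p = 0.00908) and *Kit* at 952, 1045, and 894 CPM in shLuci and 656, 757, and 743 CPM in shRad21 (log2 fold change -0.42 ± 0.08 SE, adjusted p = 0.00659). As the cells were sorted on these 2 proteins, their levels describe the sorted cells and are no finding. *Cd34* fell (log2 fold change -0.26 ± 0.07 SE, adjusted p = 0.0316), a call lost without shLuci 1, shLuci 2, shRad21 1, or shRad21 3. For *Cd48* the shLuci libraries had 317, 271, and 245 CPM and the shRad21 libraries 179, 295, and 146 CPM, and shRad21 2 lay within the control range (adjusted p = 0.269). *Procr*, which encodes the stem cell receptor EPCR, also overlapped, at 66.6, 88.4, and 109 CPM in shLuci and 90.1, 62.6, and 98.7 CPM in shRad21. *Ptprc*, the pan-leukocyte gene CD45, had a log2 fold change of -0.03 ± 0.07 SE, adjusted p = 0.818. In these bulk libraries fewer cells of a type and less RNA per cell cannot be told apart, here and in every result below.

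Most of the long-term stem cell genes rose. Of 30 genes, all tested, 24 rose and 0 fell, against 5.65% of all genes that rose, and the median log2 fold change was 0.69, against -0.00192 over all genes. The 24 include *Ly6a*, on whose protein the cells were sorted. At an unadjusted p under 0.05, 25 were higher and 1 lower, and DESeq2 called 25 higher and 1 lower. The 1 lower gene was *Vldlr*, a lipoprotein receptor named after its value was seen (log2 fold change -0.44, adjusted p = 0.0551). The summed CPM of the list was 3635 to 4147 in shLuci and 5475 to 6154 in shRad21, without overlap. *Esam*, an adhesion molecule of stem cells and endothelium, had 3 close values in each group, at 104, 98.7, and 104 CPM in shLuci and 285, 261, and 276 CPM in shRad21 (log2 fold change 1.43 ± 0.06 SE, adjusted p = 3.86e-06).

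Further rises were larger. *Sult1a1*, a sulfotransferase, stood at 12.4, 12.2, and 18.8 CPM in shLuci and 44.7, 66.8, and 89.2 CPM in shRad21 (log2 fold change 2.21 ± 0.25 SE, adjusted p = 0.000594). *Nupr1*, a stress-induced chromatin protein, stood at 17.8, 13.7, and 16.9 CPM in shLuci and 76.7, 63.5, and 81.7 CPM in shRad21 (log2 fold change 2.20 ± 0.13 SE, adjusted p = 2.45e-05), and *Fhl1*, a LIM-domain protein, at 13.3, 18.9, and 27.8 CPM in shLuci and 79.7, 59.6, and 76.5 CPM in shRad21 (log2 fold change 1.84 ± 0.23 SE, adjusted p = 0.000908). The shLuci values of *Fhl1* spread over 13.3 to 27.8 CPM, yet stayed under the lowest shRad21 value. *Ctnnal1* (1.51), *Fgd5* (1.28), and *Ndn* (1.31) rose as well on the log2 scale, *Ndn* not without shRad21 3 in the fit. Not every stem cell regulator took part. *Hlf*, a transcription factor of stem cell identity, stood at 250.4, 317, and 305 CPM in shLuci and 302, 242, and 334 CPM in shRad21, overlapping groups with a log2 fold change of 0.01 ± 0.12 SE, adjusted p = 0.979. *Mecom*, which encodes EVI1, rose (log2 fold change 0.43 ± 0.11 SE, adjusted p = 0.0403), a call that was lost in 5 of the 6 fits that left out 1 library.

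**Figure D2:**
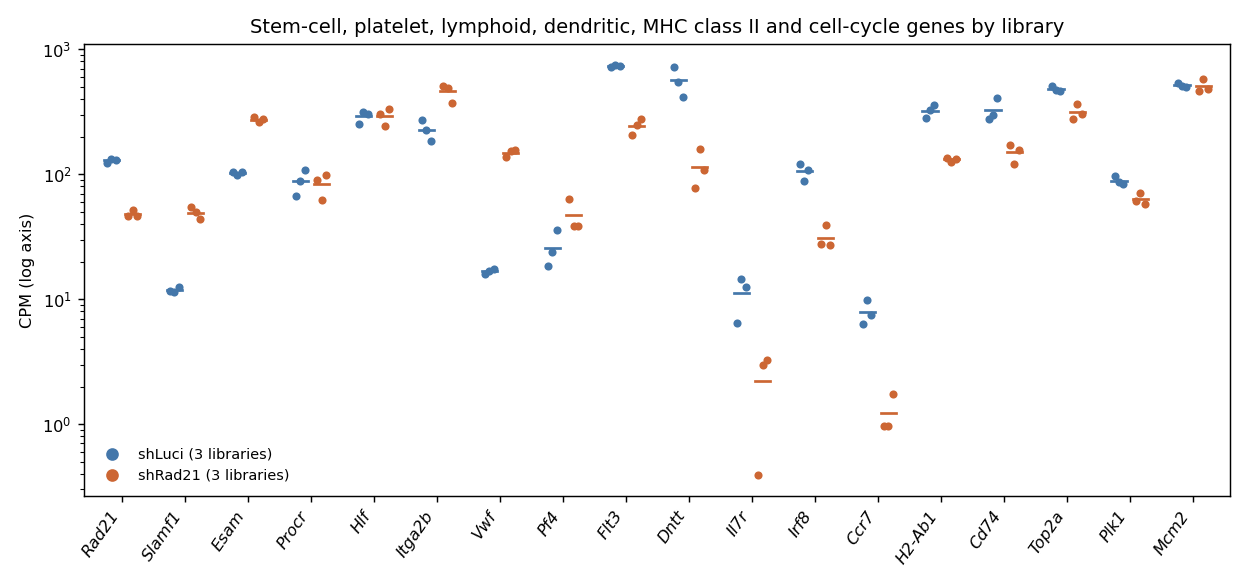
CPM on a log axis of 18 genes in each of the 6 libraries; points are libraries (blue shLuci, orange shRad21) and bars are group means. *Rad21*, *Flt3*, *Dntt*, *Il7r*, *Irf8*, *Ccr7*, *H2-Ab1*, and *Cd74* lie lower in all 3 shRad21 libraries, *Slamf1*, *Esam*, *Itga2b*, and *Vwf* lie higher, and *Procr*, *Hlf*, and *Mcm2* overlap.

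Genes known to accumulate in stem cells of old mice showed the largest rise of the lists. Of 28, all tested, 23 rose and 0 fell, against 5.65% and 5.32% of all genes. At an unadjusted p under 0.05, 25 rose and 0 fell, and 23 and 0 by DESeq2. The median log2 fold change was 1.99, and the summed CPM went from 561 to 734 in shLuci to 1491 to 1619 in shRad21. The list shares 4 genes with the platelet genes and 3 with the stem cell genes, so these counts are not separate observations. *Clu*, which encodes the chaperone clusterin, had the largest rise of the genes named here: 4.77, 2.43, and 2.79 CPM in shLuci and 142, 129.7, and 129.9 CPM in shRad21, a 39.8-fold difference (log2 fold change 5.32 ± 0.18 SE, adjusted p = 4.69e-07). *Vwf*, the adhesive protein of platelets and endothelium, stood at 15.9, 16.9, and 17.4 CPM in shLuci and 139, 153, and 156 CPM in shRad21, 8.92-fold higher (log2 fold change 3.16 ± 0.08 SE, adjusted p = 8.14e-08), with very little spread within either group.

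*Itgb3*, the integrin chain that pairs with CD41 on platelets, stood at 28.8, 20.1, and 25.4 CPM in shLuci and 124, 124, and 121 CPM in shRad21 (log2 fold change 2.31 ± 0.11 SE, adjusted p = 8.82e-06). *Cavin2*, a coat protein of caveolae, stood at 14.0, 11.9, and 19.8 CPM in shLuci and 101, 66.4, and 82.7 CPM in shRad21 (log2 fold change 2.44 ± 0.20 SE, adjusted p = 0.000118). *Clca3a1* (2.36) and *Dsg2*, a desmosomal cadherin (2.73), rose by more than 4-fold on the same scale. *Tm4sf1*, a tetraspanin-like surface protein, went from 0.795, 1.46, and 1.44 CPM to 10.8, 9.87, and 14.1 CPM (log2 fold change 3.23 ± 0.27 SE, adjusted p = 0.000118). *Sbspon* rose too (log2 fold change 3.08 ± 0.38 SE, adjusted p = 0.000908), although 72.8% of its exonic length is shared with another gene. *Selp*, the gene of P-selectin and a standard marker of old stem cells, did not follow: the shLuci libraries had 213, 124, and 117 CPM and the shRad21 libraries 127, 130, and 127 CPM (adjusted p = 0.5). Its direction turned to 0.09 on the log2 scale without shLuci 1.

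Outside these lists, the named genes with the largest rise came mostly from under 3 CPM in every shLuci library. By rule, the 20 called genes with the largest rise, a log2 of the average CPM of 1 or more, and no overlap between the groups were named. That these genes do not overlap was therefore fixed by the rule. Of the 20, 5 are members of the ageing list (*Clu*, *Tm4sf1*, *Vwf*, *Sbspon*) or the T and NK list (*Klrb1c*). *Wwtr1*, which encodes the Hippo coactivator TAZ, stood at 2.15, 1.67, and 1.67 CPM in shLuci and 14.7, 13.2, and 14.8 CPM in shRad21 (log2 fold change 2.95 ± 0.18 SE, adjusted p = 2.48e-05). *Amotl2*, an angiomotin that binds YAP and TAZ, went from 0.748, 0.864, and 1.44 CPM to 9.39, 10.8, and 14.5 CPM (log2 fold change 3.49 ± 0.29 SE, adjusted p = 0.000118). In both genes the lowest shRad21 value lay several times above the highest shLuci value.

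Some of the genes encode ligands and receptors. *Efna1*, an ephrin, stood at 1.59, 1.19, and 2.69 CPM in shLuci and 14.7, 12.0, and 15.9 CPM in shRad21 (log2 fold change 2.95 ± 0.28 SE, adjusted p = 0.00023). *Bmp4*, a growth factor of the TGF-β family, went from 0.655, 0.270, and 0.789 CPM to 5.93, 2.37, and 4.21 CPM (log2 fold change 2.84 ± 0.45 SE, adjusted p = 0.00342). *Tacr1*, the receptor of substance P, went from 0.514, 0.270, and 1.02 CPM to 10.5, 6.29, and 10.6 CPM (log2 fold change 3.89 ± 0.40 SE, adjusted p = 0.000393). *Slc17a8*, a vesicular glutamate transporter, was uneven: 0.187, 0.270, and 0.975 CPM in shLuci and 17.9, 19.8, and 3.06 CPM in shRad21 (log2 fold change 4.79 ± 0.76 SE, adjusted p = 0.00346). Library shRad21 3 held far less than the other shRad21 libraries, yet more than each control, as the naming rule required.

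Proteins of the endoplasmic reticulum and matrix were also among them. *Fkbp10*, a folding helper of collagen, stood at 1.26, 1.89, and 1.11 CPM in shLuci and 10.8, 9.44, and 10.2 CPM in shRad21 (log2 fold change 2.84 ± 0.23 SE, adjusted p = 0.000118), and *Gpx8*, a peroxidase of the same compartment, at 0.327, 0.378, and 0.325 CPM in shLuci and 4.04, 4.84, and 3.96 CPM in shRad21 (log2 fold change 3.62 ± 0.29 SE, adjusted p = 0.000117). *P3h2*, a collagen prolyl hydroxylase, rose as well (log2 fold change 2.96). Of 44 collagen genes only 14 were tested, of which 3 rose and 2 fell, against 5.65% and 5.32% of all genes. *Col16a1* stood at 31.8, 37.3, and 48.9 CPM in shLuci and 106, 113, and 107 CPM in shRad21 (log2 fold change 1.46 ± 0.13 SE, adjusted p = 0.000197), *Col4a5* went from 1.07, 0.918, and 0.604 CPM to 5.79, 3.00, and 3.11 CPM (log2 fold change 2.19 ± 0.36 SE, adjusted p = 0.00432), and *Col4a6* was at 0, 0, and 0.279 CPM in shLuci and at 1.85, 1.26, and 2.56 CPM in shRad21. Other named rises were *Gkn3* (4.16), *Gm5833* (3.27), *Tmem47* (2.89), *Ccdc136* (2.84), and *Myom1* (2.82), all as log2 fold changes from under 2 CPM in each shLuci library.

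**Figure D3:**
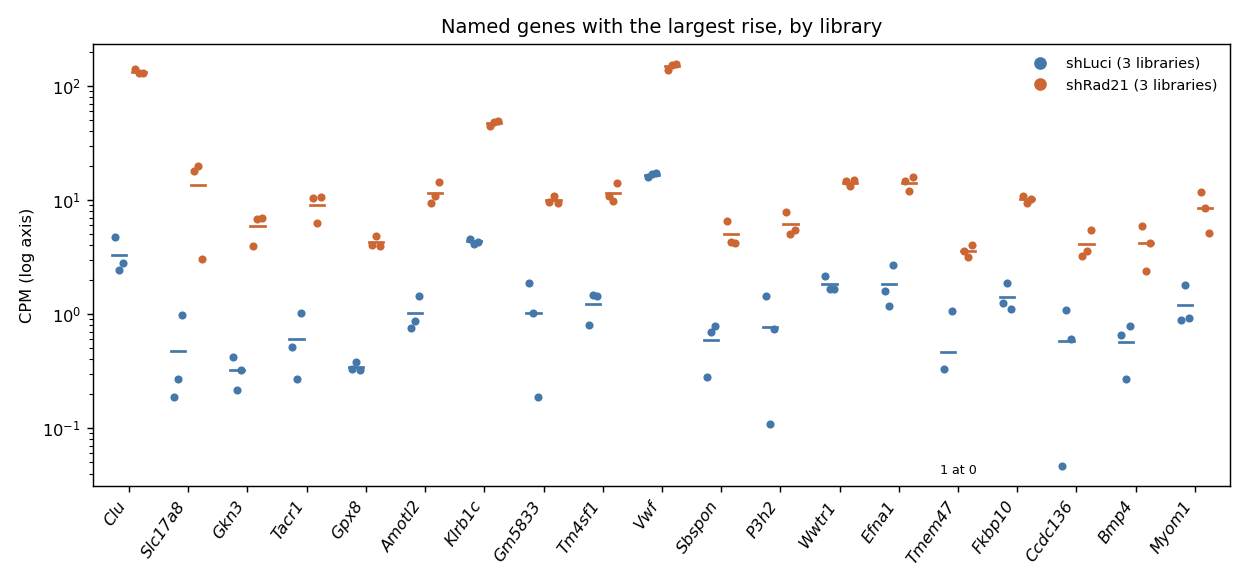
CPM on a log axis of 19 of the named genes with the largest rise, in order of their log2 fold change; points are libraries, bars group means, and a value of 0 is written at the axis. *Clu*, *Vwf*, and *Klrb1c* are the 3 genes with over 40 CPM in every shRad21 library, whereas the other 16 start from under 3 CPM in every shLuci library.

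Platelet-lineage genes rose as a group with exceptions. Of 35 genes 32 were tested, 22 rose and 1 fell, against 5.65% and 5.32% of all genes, and the median log2 fold change was 1.0. The summed CPM was 2699 to 2912 in shLuci and 4142 to 4618 in shRad21. *Itga2b*, which encodes CD41, the platelet integrin chain that early progenitors also carry, stood at 273, 225, and 185 CPM in shLuci and 512, 492, and 375 CPM in shRad21 (log2 fold change 1.01 ± 0.15 SE, adjusted p = 0.00226). *Rab27b*, a GTPase of granule release, stood at 22.6, 29.4, and 20.5 CPM in shLuci and 71.9, 66.7, and 59.8 CPM in shRad21 (log2 fold change 1.45 ± 0.14 SE, adjusted p = 0.000233), and *F2rl2*, the thrombin receptor PAR3, at 9.21, 7.83, and 6.92 CPM in shLuci and 26.1, 20.2, and 15.8 CPM in shRad21 (log2 fold change 1.37 ± 0.20 SE, adjusted p = 0.002).

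*F5*, coagulation factor V, rose from 1.82, 2.43, and 1.07 CPM to 7.54, 8.86, and 8.43 CPM (log2 fold change 2.23 ± 0.28 SE, adjusted p = 0.000999), and *Alox12*, the platelet lipoxygenase, from 0.0935, 0.0540, and 0.139 CPM to 1.46, 1.06, and 1.05 CPM (log2 fold change 3.54 ± 0.53 SE, adjusted p = 0.00262). The chemokine of platelet granules, *Pf4*, lay higher in each shRad21 library, at 18.3, 23.8, and 35.6 CPM in shLuci and 63.8, 38.8, and 38.6 CPM in shRad21, but did not pass the test (log2 fold change 0.86 ± 0.26 SE, adjusted p = 0.0621). *Slc35d3*, a transporter needed for platelet dense granules, was the 1 gene that fell, at 13.8, 20.1, and 26.3 CPM in shLuci and 3.21, 2.76, and 5.47 CPM in shRad21 (log2 fold change -2.40 ± 0.30 SE, adjusted p = 0.000909). The members of the list too low to test are given as counts. *Tubb1* had 1, 5, and 5 counts in shLuci and 18, 19, and 8 in shRad21. *Mpig6b* had between 1 and 10 counts in any library. *Gp6* had 0 in all 6, which allows up to 0.139 to 0.160 CPM per library.

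Mast cell and basophil genes, a list of 14 of which 12 were tested, rose in 6 cases and fell in 0, against 5.65% and 5.32% of all genes (median log2 fold change 0.75; 7 and 2 at an unadjusted p under 0.05, 6 and 1 by DESeq2). The summed CPM was 330 to 396 in shLuci and 519.5 to 601 in shRad21. *Cyp11a1*, a steroidogenic enzyme of mast cells, stood at 3.60, 6.05, and 3.85 CPM in shLuci and 16.3, 15.8, and 16.1 CPM in shRad21 (log2 fold change 1.84 ± 0.20 SE, adjusted p = 0.000485), and *Hpgds*, the prostaglandin D synthase, at 7.67, 9.51, and 13.7 CPM in shLuci and 25.5, 18.5, and 24.1 CPM in shRad21 (log2 fold change 1.14 ± 0.21 SE, adjusted p = 0.00784). The granule proteases were low and uneven: *Tpsb2* stood at 0.187, 0.270, and 0.186 CPM in shLuci and 1.70, 0.968, and 5.77 CPM in shRad21 and *Cma1* at 0.842, 1.24, and 0.325 CPM in shLuci and 3.55, 1.84, and 8.28 CPM in shRad21, each highest in shRad21 3. Their part in the other results was not tested.

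Genes of lymphoid priming fell. All 32 were tested, 23 fell (5.32% of all genes fell) and 1 rose, with a median log2 fold change of -1.09 and a summed CPM of 5851 to 7149 in shLuci against 3380 to 3895 in shRad21. *Dntt*, the terminal transferase that adds bases to immunoglobulin joints and an early lymphoid gene, stood at 728, 548, and 418 CPM in shLuci and 77.1, 159, and 107 CPM in shRad21, 4.93-fold lower (log2 fold change -2.30 ± 0.26 SE, adjusted p = 0.000571). The highest shRad21 library held well under the lowest shLuci library. *Rag2*, part of the recombinase, stood at 15.7, 13.3, and 14.5 CPM in shLuci and 1.70, 3.29, and 3.66 CPM in shRad21 (log2 fold change -2.33 ± 0.25 SE, adjusted p = 0.000484), and its partner *Rag1* at 1.82, 4.75, and 1.90 CPM in shLuci and 0.292, 0.774, and 0.10 CPM in shRad21 (log2 fold change -2.83 ± 0.63 SE, adjusted p = 0.0186). The *Rag1* call was lost without shLuci 2, shRad21 1, or shRad21 3.

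Receptors and regulators of lymphoid cells fell with them. *Il7r*, the interleukin-7 receptor, stood at 6.45, 14.5, and 12.6 CPM in shLuci and 0.389, 2.95, and 3.26 CPM in shRad21 (log2 fold change -2.34 ± 0.56 SE, adjusted p = 0.0252), a call lost without shLuci 2, shLuci 3, shRad21 2, or shRad21 3. *Tcf7*, a T-lineage transcription factor, stood at 6.78, 8.86, and 9.89 CPM in shLuci and 1.02, 2.47, and 1.86 CPM in shRad21 (log2 fold change -2.25 ± 0.31 SE, adjusted p = 0.00154), and *Ebf1*, the B-lineage factor, at 3.23, 7.13, and 7.15 CPM in shLuci and 0.973, 1.16, and 1.86 CPM in shRad21 (log2 fold change -2.13 ± 0.37 SE, adjusted p = 0.00572). *Blnk*, an adaptor of B-cell receptor signaling, had close values within groups, at 14.1, 17.3, and 15.9 CPM in shLuci and 3.02, 3.34, and 3.41 CPM in shRad21 (log2 fold change -2.27 ± 0.16 SE, adjusted p = 4.62e-05). *Igll1*, the surrogate light chain, stood at 18.5, 35.6, and 31.2 CPM in shLuci and 4.47, 4.16, and 5.82 CPM in shRad21 (log2 fold change -2.56 ± 0.25 SE, adjusted p = 0.000272). *Foxo1* was the single gene that rose (log2 fold change 0.51, adjusted p = 0.00417), named here after its value was seen.

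Transcripts of mature B and plasma cells were present and uneven in the libraries. All 17 listed genes were tested, 8 fell and 0 rose, against 5.32% and 5.65% of all genes. At an unadjusted p under 0.05, 11 fell and 0 rose, and 9 and 0 by DESeq2. The median log2 fold change was -1.77, but the summed CPM, 774 to 2276 in shLuci and 828 to 1441 in shRad21, overlapped. The spread lay between libraries: the sum was 774 in shLuci 1, 2217 in shLuci 2, and 2276 in shLuci 3. Of 83 immunoglobulin genes tested, 13 fell and 0 rose, also against 5.32% and 5.65% of all genes. Immunoglobulin genes together held 1724, 6191, and 5225 CPM in shLuci and 3099, 1570, and 1948 CPM in shRad21. None of the 17 was at 0 in all libraries of a group.

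*Pax5*, the factor of B-cell commitment, stood at 1.26, 2.86, and 1.62 CPM in shLuci and 0.292, 0.194, and 0.150 CPM in shRad21 (log2 fold change -3.13 ± 0.49 SE, adjusted p = 0.00333), and *Sdc1*, the plasma cell surface protein CD138, at 18.6, 37.0, and 25.7 CPM in shLuci and 7.15, 4.21, and 6.88 CPM in shRad21 (log2 fold change -2.15 ± 0.27 SE, adjusted p = 0.00106). *Igha*, the IgA heavy chain, stood at 101, 275, and 412 CPM in shLuci and 41.8, 31.0, and 16.2 CPM in shRad21 (log2 fold change -3.15 ± 0.48 SE, adjusted p = 0.00283). Of the 12 named genes with the largest fall, 6 were immunoglobulin genes, among them *Ighv7-1*, with 3.41, 10.2, and 3.30 CPM in shLuci and no count in shRad21, at least 114-fold lower against a floor of 3 counts over the group. As immunoglobulin genes form a family with near-identical copies, and a few plasma cells can supply the reads of 1 V gene, each of these is uncertain. With shLuci 2 and shLuci 3 both left out, which leaves 1 control library, assumed to vary like the others, 1 of the 17 B and plasma cell genes fell and the median log2 fold change was -0.53. In that fit 17 of the 32 lymphoid priming genes fell and their median was -1.10. The part of mature B cells in the lymphoid result was not tested.

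The other named genes with the largest fall were on none of the gene lists, and which cells express them was not tested. *Cnn3*, an actin-binding calponin, stood at 44.8, 46.6, and 40.4 CPM in shLuci and 2.63, 5.66, and 4.01 CPM in shRad21 (log2 fold change -3.42 ± 0.23 SE, adjusted p = 4.06e-05), and *Slc16a11*, a transporter of the monocarboxylate family, at 40.0, 43.0, and 28.7 CPM in shLuci and 3.55, 2.66, and 4.97 CPM in shRad21 (log2 fold change -3.32 ± 0.24 SE, adjusted p = 5.37e-05). *Kcng1*, a potassium channel subunit, stood at 34.2, 15.9, and 14.9 CPM in shLuci and 0.778, 2.03, and 1.61 CPM in shRad21 (log2 fold change -3.88 ± 0.41 SE, adjusted p = 0.000424). *Ptger2*, the prostaglandin E2 receptor EP2, fell from 12.5, 13.6, and 13.4 CPM to 0.875, 1.45, and 2.11 CPM (log2 fold change -3.15 ± 0.27 SE, adjusted p = 0.000142), and *Epha7*, an ephrin receptor, from 9.26, 13.4, and 15.7 CPM to 0.827, 2.47, and 1.46 CPM (log2 fold change -3.01 ± 0.35 SE, adjusted p = 0.000679). The last of the 12 was *Gm17936*, annotated as a processed pseudogene, so its reads are uncertain. It stood at 5.05, 5.35, and 3.58 CPM in shLuci and 0.0486, 0.387, and 0.401 CPM in shRad21 (log2 fold change -4.03 ± 0.48 SE, adjusted p = 0.000772).

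Dendritic cell genes fell in part. Of 30 genes 28 were tested, 8 fell and 0 rose, against 5.32% and 5.65% of all genes. A log2 fold change below 0 was found for 25, with a list median of -1.0. At an unadjusted p under 0.05, 16 were lower and 0 higher, and DESeq2 called 10 lower and 0 higher. The summed CPM, 1905 to 1927 in shLuci and 1065 to 1196 in shRad21, did not overlap, and *Flt3*, which is on the list, makes up a large share of it. *Irf8*, the factor that directs progenitors to dendritic cells and monocytes, stood at 120.2, 87.6, and 108 CPM in shLuci and 27.4, 38.9, and 27.0 CPM in shRad21 (log2 fold change -1.76 ± 0.16 SE, adjusted p = 0.000172). *Ccr7*, the receptor that guides migration to lymph nodes, fell from 6.36, 9.83, and 7.52 CPM to 0.973, 0.968, and 1.76 CPM (log2 fold change -2.68 ± 0.30 SE, adjusted p = 0.000508). *Itgax*, which encodes CD11c, stood at 5.56, 3.78, and 4.04 CPM in shLuci and 0.584, 1.16, and 1.0 CPM in shRad21 (log2 fold change -2.28 ± 0.32 SE, adjusted p = 0.00173).

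*Clec10a*, a lectin of conventional dendritic cells, fell from 7.34, 7.24, and 4.97 CPM to 0.486, 1.69, and 0.953 CPM (log2 fold change -2.63 ± 0.39 SE, adjusted p = 0.00241), and *Cst3*, cystatin C, which is high in dendritic cells, stood at 339.9, 376, and 410.1 CPM in shLuci and 259.9, 256, and 281 CPM in shRad21 (log2 fold change -0.50 ± 0.08 SE, adjusted p = 0.00301). The defining genes of mature subsets were low in every library. *Siglech*, of plasmacytoid cells, stood at 1.17, 1.57, and 1.11 CPM in shLuci and 0.146, 0.726, and 0.803 CPM in shRad21 (adjusted p = 0.209), and *Zbtb46*, of conventional cells, at 2.76, 4.97, and 4.92 CPM in shLuci and 3.31, 1.84, and 1.91 CPM in shRad21 (adjusted p = 0.145), with overlapping groups. *Cd209a* had 5 to 13 counts per library and was not tested. The median moved to -0.69 without shLuci 2 and to -0.42 without shLuci 2 and shLuci 3.

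Most genes of antigen presentation by MHC class II fell. Of 11 genes 10 were tested, 8 fell and 0 rose, against 5.32% and 5.65% of all genes. At an unadjusted p under 0.05 and by DESeq2, 9 fell and 0 rose. All 10 had a log2 fold change below 0 (median -1.05, range -1.29 to -0.16). The summed CPM was 1340 to 1587 in shLuci and 695 to 790 in shRad21. *H2-Ab1*, the beta chain of I-A, stood at 280.0, 327, and 356 CPM in shLuci and 136, 125, and 133 CPM in shRad21 (log2 fold change -1.29 ± 0.09 SE, adjusted p = 4.62e-05). Its partner *H2-Aa* stood at 136, 155, and 170.4 CPM in shLuci and 77.1, 58.5, and 74.4 CPM in shRad21 (log2 fold change -1.14 ± 0.12 SE, adjusted p = 0.000363), *H2-Eb1*, the beta chain of I-E, at 69.0, 74.0, and 93.2 CPM in shLuci and 36.1, 26.3, and 34.1 CPM in shRad21 (log2 fold change -1.29 ± 0.14 SE, adjusted p = 0.000491), and *Cd74*, the invariant chain that fills the groove, at 276, 299.8, and 407 CPM in shLuci and 170.4, 121, and 157 CPM in shRad21 (log2 fold change -1.13 ± 0.16 SE, adjusted p = 0.00168).

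The genes of H2-DM and H2-O, which act on the loading of peptides, split by size. *H2-Ob* (-1.04) and *H2-DMb2* (-1.07) fell by about as much on the log2 scale, and *H2-DMa* (-0.54) and *H2-Oa* (-0.50) by less. The *H2-DMb2* call was lost without shLuci 2, shLuci 3, shRad21 1, or shRad21 2, and that of *H2-Oa* without shRad21 3. *Ciita*, the coactivator that switches on the whole set, stood at 14.4, 11.1, and 8.78 CPM in shLuci and 8.41, 4.55, and 7.18 CPM in shRad21, lower in each shRad21 library but not past the threshold (log2 fold change -0.77 ± 0.25 SE, adjusted p = 0.0868).

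As most of the MHC class II and the mitosis genes fell, the bases upstream of the start sites of some of them are shown. Windows are the last 130 bases before the RefSeq start on GRCm38.p6, 5′ to 3′ on the gene's strand, and capitals mark CCAAT, the core of the box bound by NF-Y, on either strand, and, for mitosis genes, TTTGAA or TTCGAA, the core of the cell cycle homology region, on either strand. Shown are the 5 of 18 named genes of both lists with a RefSeq promoter whose window overlaps no annotated exon and holds CCAAT. A match is a description and not a bound site.
H2-Aa (chr17:34287824-34287953, minus strand): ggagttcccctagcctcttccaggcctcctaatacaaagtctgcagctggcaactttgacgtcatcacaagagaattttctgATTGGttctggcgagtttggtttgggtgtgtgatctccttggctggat
H2-Eb1 (chr17:34305737-34305866, plus strand): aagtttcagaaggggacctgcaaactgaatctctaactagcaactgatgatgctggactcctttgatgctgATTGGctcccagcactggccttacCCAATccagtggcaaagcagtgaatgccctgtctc
Top2a (chr11:99024190-99024319, minus strand): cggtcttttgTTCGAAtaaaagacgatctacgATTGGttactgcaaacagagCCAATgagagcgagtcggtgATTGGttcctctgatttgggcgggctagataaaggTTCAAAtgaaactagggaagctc
Ect2 (chr3:27153879-27154008, minus strand): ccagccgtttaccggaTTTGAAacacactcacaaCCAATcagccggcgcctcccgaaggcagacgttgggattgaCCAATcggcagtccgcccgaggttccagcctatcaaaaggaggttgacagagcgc
Kif23 (chr9:61946800-61946929, minus strand): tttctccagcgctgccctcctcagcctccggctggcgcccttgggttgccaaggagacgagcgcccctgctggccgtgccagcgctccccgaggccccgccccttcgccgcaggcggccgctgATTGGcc

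Within the 250 bases before the start, CCAAT on either strand was found in 34.5% of the 27025 genes with a promoter in the table and in 36.3% of the 10571 tested here. It was found in 7 of 8 MHC class II genes, 36 of 49 mitosis genes (73.5%), 22 of 37 DNA replication genes (59.5%), 7 of 22 stem cell genes (31.8%), and 7 of 27 platelet genes (25.9%). TTTGAA or TTCGAA on either strand was found in 17.4% of all genes and 12.5% of the genes tested. It was found in 18 of 49 mitosis genes (36.7%), 6 of 37 DNA replication genes (16.2%), 6 of 27 platelet genes (22.2%), 1 of 22 stem cell genes (4.55%), and 0 of 8 MHC class II genes.

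Mitosis genes fell by small and similar amounts. All 61 were tested, 45 fell and 0 rose, against 5.32% and 5.65% of all genes. At an unadjusted p under 0.05, 58 fell and 0 rose, and 55 and 0 by DESeq2. A log2 fold change below 0 was found for 60, with a list median of -0.42 and a range of -0.63 to 0.09. The summed CPM was 7235 to 7807 in shLuci and 5228 to 6332 in shRad21. *Top2a*, the topoisomerase that untangles sister chromatids, stood at 509.7, 471, and 460.0 CPM in shLuci and 278, 368, and 303 CPM in shRad21 (log2 fold change -0.60 ± 0.10 SE, adjusted p = 0.00375). *Ect2* (log2 fold change -0.60 ± 0.11 SE, adjusted p = 0.00793) and *Kif23* (log2 fold change -0.62 ± 0.08 SE, adjusted p = 0.000899), both needed for cytokinesis, fell alike, with *Kif23* at 128, 139.5, and 137 CPM in shLuci and 79.5, 91.0, and 92.8 CPM in shRad21.

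*Cdca3*, a trigger of mitotic entry, stood at 98.4, 89.1, and 94.6 CPM in shLuci and 55.9, 67.6, and 58.7 CPM in shRad21 (log2 fold change -0.63 ± 0.08 SE, adjusted p = 0.00137), *Plk1*, the mitotic kinase, at 96.1, 87.1, and 83.2 CPM in shLuci and 61.2, 70.5, and 57.5 CPM in shRad21 (log2 fold change -0.49 ± 0.09 SE, adjusted p = 0.0074), *Ccnb1*, cyclin B1, at 74.2, 66.5, and 63.1 CPM in shLuci and 43.7, 55.3, and 48.4 CPM in shRad21 (log2 fold change -0.47 ± 0.10 SE, adjusted p = 0.0163), and *Mki67*, the proliferation antigen Ki-67, at 370.4, 312, and 302 CPM in shLuci and 221, 262, and 243 CPM in shRad21 (log2 fold change -0.44 ± 0.09 SE, adjusted p = 0.0131). The calls of *Ccnb1* and *Mki67* were lost without shRad21 1 or shRad21 3, and that of *Ccnb1* also without shLuci 1. In each of these 4 genes, shRad21 2 was the highest of its group. The number of calls rested on single libraries, although the median stayed between -0.52 and -0.36: 25 genes fell without shLuci 1, 28 without shLuci 2, 22 without shRad21 1, and 17 without shRad21 3.

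DNA replication genes moved less. All 47 were tested, 9 fell and 0 rose (21 and 0 at an unadjusted p under 0.05, 8 and 0 by DESeq2). A log2 fold change below 0 was found for 46, with a list median of -0.17. The share that fell was above the 5.32% of all genes, but the sizes were small. The summed CPM overlapped, at 8561 to 8919 in shLuci and 7483 to 8733 in shRad21, with shRad21 2 within the control range. *E2f2*, a factor of the G1 to S transition, stood at 22.6, 24.8, and 23.4 CPM in shLuci and 13.0, 15.1, and 13.9 CPM in shRad21 (log2 fold change -0.75 ± 0.11 SE, adjusted p = 0.00277), and *Tyms*, thymidylate synthase, at 160.3, 159, and 162 CPM in shLuci and 123, 136, and 131 CPM in shRad21 (log2 fold change -0.30 ± 0.06 SE, adjusted p = 0.0129), a call lost without shRad21 1 or shRad21 3. The helicase subunit *Mcm2* overlapped, at 534, 508, and 503 CPM in shLuci and 468, 578, and 478 CPM in shRad21, as did *Mcm5* (-0.19 ± 0.09 SE, adjusted p = 0.228), and *Pcna*, the sliding clamp, had a log2 fold change of -0.11 ± 0.07 SE, adjusted p = 0.373. The 9 calls became 1 to 17 when 1 library was left out: 3, 2, and 4 without shLuci 1, 2, and 3, and 2, 17, and 1 without shRad21 1, 2, and 3. Of 34 histone genes of the S phase that were tested, 2 fell and 0 rose, near the 5.32% of all genes that fell. At an unadjusted p under 0.05, 9 fell and 3 rose, and 3 and 0 by DESeq2.

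**Figure D4:**
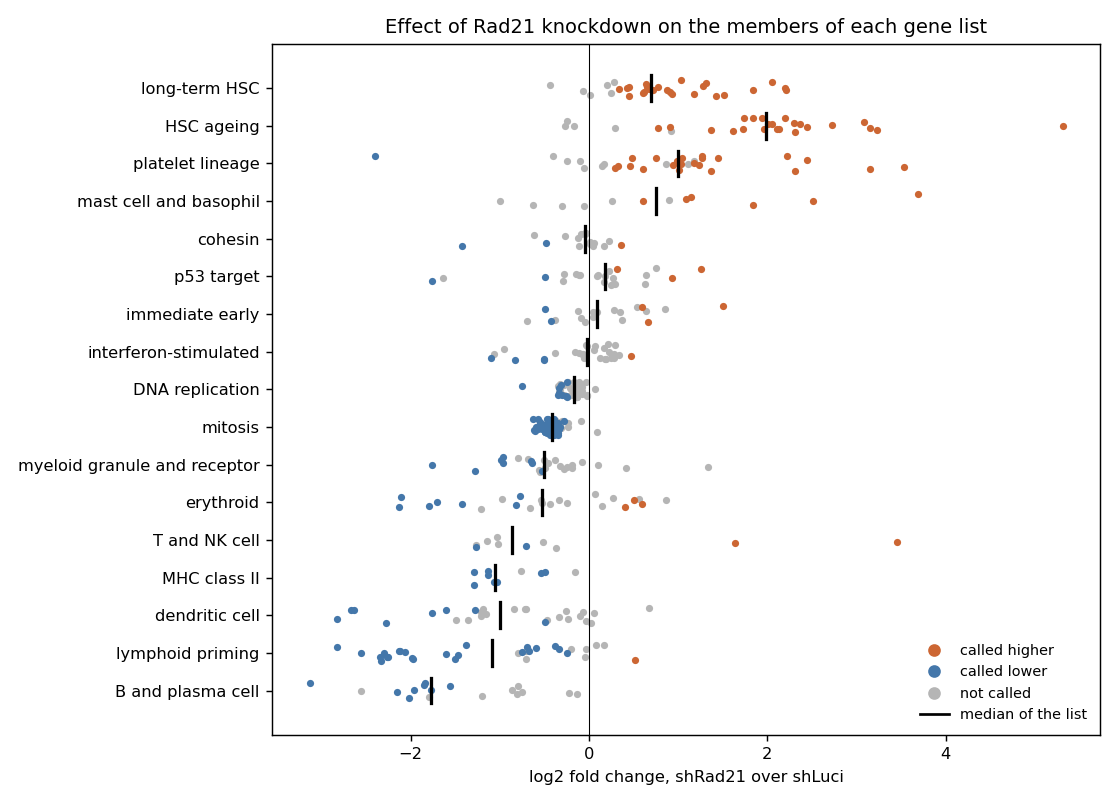
Log2 fold change of shRad21 over shLuci for each tested member of 17 gene lists; points are genes, orange and blue mark genes called higher and lower, gray marks genes not called, and black bars are list medians. The ageing list lies farthest to the right (median 1.99) and the B and plasma cell list farthest to the left (-1.77), and the mitosis list forms a tight cluster around -0.42.

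Some of the myeloid genes fell. The list shares *Csf1r* and *Irf8*, which both fell, with the dendritic cell genes, so the counts of these lists are not separate observations. All 25 were tested, 8 fell and 0 rose, against 5.32% and 5.65% of all genes. At an unadjusted p under 0.05, 11 fell and 1 rose, and 9 and 0 by DESeq2. The median log2 fold change was -0.51, and the summed CPM was 3075 to 3645 in shLuci and 2393 to 2580 in shRad21. *Cebpa*, which drives granulocyte and monocyte fate, stood at 27.6, 22.5, and 23.1 CPM in shLuci and 11.4, 13.2, and 12.2 CPM in shRad21 (log2 fold change -0.99 ± 0.13 SE, adjusted p = 0.00118), and *Gfi1*, a transcriptional repressor needed to form neutrophils, at 73.1, 71.6, and 79.6 CPM in shLuci and 35.2, 37.6, and 42.1 CPM in shRad21 (log2 fold change -0.97 ± 0.09 SE, adjusted p = 0.000189). *Csf1r*, the receptor of the macrophage growth factor, stood at 34.1, 21.1, and 17.6 CPM in shLuci and 10.5, 11.7, and 7.78 CPM in shRad21 (log2 fold change -1.28 ± 0.25 SE, adjusted p = 0.0096), a call lost without shRad21 3.

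Erythroid genes were mixed. Of 24 genes 23 were tested, 7 fell and 3 rose, against 5.32% and 5.65% of all genes. The median log2 fold change was -0.53, and the summed CPM overlapped, at 1554 to 1791 in shLuci and 1587 to 1867 in shRad21. *Car1*, carbonic anhydrase 1, stood at 39.5, 46.5, and 59.1 CPM in shLuci and 11.1, 11.9, and 10.1 CPM in shRad21 (log2 fold change -2.13 ± 0.16 SE, adjusted p = 7.1e-05), and *Rhag*, the Rh-associated glycoprotein, at 2.76, 6.48, and 4.78 CPM in shLuci and 1.02, 1.35, and 0.853 CPM in shRad21 (log2 fold change -2.11 ± 0.36 SE, adjusted p = 0.00478). *Ermap* fell as well (log2 fold change -1.79). These 3 genes were named for the size of their change, and the 3 genes that rose are not named. Log2 fold changes ranged from -2.13 to 0.87, with 8 genes above 0 and 15 below. At an unadjusted p under 0.05, 9 fell and 5 rose, and 8 and 3 by DESeq2. The list median turned to 0.15 with shLuci 2 and shLuci 3 both left out.

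Of 17 T- and NK-cell genes 10 were tested, of which 2 rose and 2 fell, against 5.65% and 5.32% of all genes. Among the genes too low to test, *Cd3e* had 1 to 3 counts and *Cd8a* 0 to 6 counts in any library. *Klrb1c*, which encodes NK1.1, stood at 4.58, 4.16, and 4.27 CPM in shLuci and 44.8, 48.6, and 49.8 CPM in shRad21, 11.0-fold higher (log2 fold change 3.46 ± 0.12 SE, adjusted p = 4.69e-07). *Nkg7*, a granule protein, stood at 423, 339, and 313 CPM in shLuci and 224, 234, and 202 CPM in shRad21 (log2 fold change -0.70 ± 0.11 SE, adjusted p = 0.00285). *Gzmb* rose (log2 fold change 1.64 ± 0.43 SE, adjusted p = 0.0371) and *Il2rb* fell (log2 fold change -1.27 ± 0.35 SE, adjusted p = 0.0451), each a call lost in 5 of the 6 fits that left out 1 library.

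Genes of acute responses moved both ways, and the share called was above the 11.0% of all genes. Of 19 immediate early genes tested 3 rose and 2 fell: *Egr1*, an early growth response factor, stood at 19.9, 17.1, and 19.2 CPM in shLuci and 50.5, 44.3, and 64.6 CPM in shRad21 (log2 fold change 1.5 ± 0.15 SE, adjusted p = 0.000272), and *Jun* at 179, 178, and 155 CPM in shLuci and 281, 227, and 268 CPM in shRad21 (log2 fold change 0.60 ± 0.09 SE, adjusted p = 0.00278). Of 23 p53 targets 3 rose and 2 fell. *Cdkn1a*, which encodes the cell cycle inhibitor p21, fell, at 25.5, 15.3, and 14.5 CPM in shLuci and 5.35, 6.49, and 4.47 CPM in shRad21 (log2 fold change -1.76 ± 0.24 SE, adjusted p = 0.00157), and *Fas*, the death receptor, rose from 1.68, 2.27, and 1.11 CPM to 4.04, 3.78, and 4.21 CPM (log2 fold change 1.25 ± 0.29 SE, adjusted p = 0.021), a call lost without shLuci 1, shRad21 1, or shRad21 3.

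Interferon-stimulated genes, 29 tested, rose in 1 case and fell in 4, against 5.65% and 5.32% of all genes, with a median log2 fold change of -0.02. *Ly6e* stood at 1562, 1468, and 1524 CPM in shLuci and 1093, 1059, and 1054 CPM in shRad21 (log2 fold change -0.51 ± 0.05 SE, adjusted p = 0.000314), and *Gbp3*, a guanylate-binding protein, at 70.1, 60.6, and 66.2 CPM in shLuci and 37.7, 38.1, and 35.3 CPM in shRad21 (log2 fold change -0.83 ± 0.08 SE, adjusted p = 0.000345). Housekeeping families moved by small amounts. Of 77 ribosomal protein genes 1 fell and 0 rose, against 5.32% and 5.65% of all genes (median log2 fold change -0.09). A log2 fold change below 0 was found for 58 of them. At an unadjusted p under 0.05, 8 fell and 0 rose, and 3 and 0 by DESeq2. Their summed CPM did not overlap, at 6815 to 7146 in shLuci and 5970 to 6523 in shRad21. Oxidative phosphorylation had 5 of 95 genes called lower and 0 higher (median -0.06), near the 5.32% of all genes that fell. Of the 95, 68 lay below 0. At an unadjusted p under 0.05, 12 fell and 1 rose, and 5 and 0 by DESeq2. The summed CPM was 13040 to 13420 in shLuci and 12470 to 12770 in shRad21, without overlap. The mitochondrially encoded genes had 0 of 9 called (2 lower at an unadjusted p under 0.05, 1 lower by DESeq2). Of 7 *Hoxa* genes 0 were called, also at an unadjusted p under 0.05 and by DESeq2. Of 24 integrin genes tested 5 rose and 8 fell, against 5.65% and 5.32% of all genes. At an unadjusted p under 0.05, 5 rose and 12 fell, and 5 and 9 by DESeq2. *Itgb3*, *Itga2b*, and *Itgb6* (1.75) rose while *Itgax* and *Itgad* (-2.28) fell, with log2 fold changes in parentheses.

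**Figure D5:**
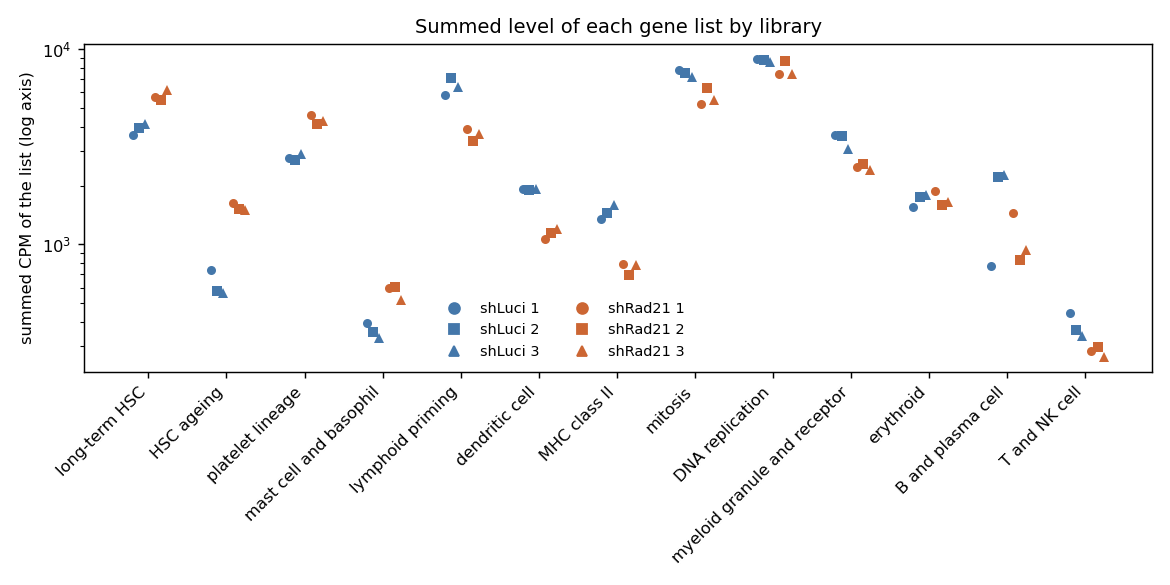
Summed CPM of the members of 13 gene lists in each of the 6 libraries, on a log axis; color marks the group and the symbol the replicate number. The sums of the stem cell, ageing, platelet, mast cell, lymphoid, dendritic, MHC class II, and mitosis lists do not overlap between the groups, whereas those of the B and plasma cell (774 to 2276 against 828 to 1441) and erythroid lists do.

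The same knockdown in culture was measured in 6 other libraries, from GFP+CD48-Sca-1+ cells 3 d after infection, with another library kit and another gate. The setting, the kit, and the gate cannot be told apart. In a model of all 12 libraries, the knockdown effect differed between the settings for 796 of 17050 genes (4.67%). *Rad21* itself did not differ detectably, with a log2 fold change of -1.43 in vivo and -1.52 in culture (difference 0.09 ± 0.11 SE). Rises of *Esam* (1.43 in vivo, 1.33 in culture, difference 0.09 ± 0.13 SE) and of *Itga2b* (1.01 and 1.05, difference -0.04 ± 0.26 SE) were of like size in both on the log2 scale.

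Other effects were larger in vivo. *Vwf* rose by 3.16 in vivo and 0.80 in culture on the log2 scale (difference 2.35 ± 0.22 SE, adjusted p = 4.78e-05), and *Clu* by 5.32 and 1.28 (difference 4.03 ± 0.31 SE, adjusted p = 1.66e-05). Some effects had opposite signs. The log2 fold change of *Dntt* was -2.30 in vivo and 1.04 in culture, where it did not pass the test (difference -3.36 ± 0.49 SE, adjusted p = 0.00127), that of *Clec10a* -2.63 and 1.85 (difference -4.50 ± 0.46 SE, adjusted p = 0.000107), and that of *Gfi1* -0.97 and 0.98 (difference -1.96 ± 0.18 SE, adjusted p = 4.78e-05). For *Flt3* and *H2-Ab1*, which fell in both settings, no difference was detectable (-0.49 ± 0.23 SE and -0.50 ± 0.21 SE on the log2 scale).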

How the data were processed

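RNA was measured in 3 shLuci and 3 shRad21 libraries of reisolated GFP+ LSK cells, with 6 culture libraries used for 1 comparison. The authors made the in vivo libraries with SMART-Seq v4 and Nextera XT, sequenced 51 cycles single-end, removed rRNA and low-quality reads, mapped to GRCm38 with TopHat2 2.0.11, and counted reads on genes with HTSeq 0.6.1 (strand setting and annotation release are not given in the sources used here). SMART-Seq v4 does not mark strand, so a gene and its antisense partner cannot be told apart. What the authors deposited are raw read counts per gene, and they were used unchanged.

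Of 46078 genes, 45229 matched GENCODE M21 by identifier. The others held 0.105% of the counts. Genes were kept with filterByExpr of edgeR 4.0.16 (R 4.3.3): at least 10 counts, scaled to the median library, in 3 libraries, and 15 over all libraries. Libraries were scaled by TMM, and shRad21 was compared with shLuci on the 6 libraries, without further covariates, by the quasi-likelihood test of edgeR (two-sided), with p-values adjusted by Benjamini-Hochberg and a threshold of 0.05. The replicate numbers were not used as a pairing. Printed CPM are counts divided by the TMM-scaled library size. The difference of the effect between settings was the interaction term in a model of all 12 libraries. DESeq2 1.42.0, other scalings and filters, a replicate block, and the omission of each library were alternatives. On simulated data with 200 changed genes, drawn from the in vivo libraries (15679 genes), edgeR recovered 66% of genes changed by a log2 fold of 1 and 88% of those changed by 2, and 7.78% of its calls were on unchanged genes, against 14.2% of those of DESeq2.

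Gene lists and members were chosen with earlier results of these data known. Genes were named by rule. These were *Rad21* and cohesin genes, the LSK surface genes, and the 20 largest rises and 12 largest falls. Rises and falls had to be called, with a log2 of the average CPM of at least 1 and no overlap. Up to 8 called members and a few preset members were named for each of 8 lists, and up to 4 called members for the others. Which of these are printed was decided after their values were seen, and some are not reported here. Promoters were taken from RefSeq (GRCm38.p6). The omission of shLuci 2 and 3 together was added after the data had been seen. Tables were made with pandas 2.3.3 and NumPy 2.4.6 in Python 3.11.15 and figures with matplotlib 3.10.9.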

Additional observations from a re-analysis of the deposited data

Results flagged for a closer look

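For 48 genes printed above, the effect of the knockdown differed between the reisolated and the cultured cells by edgeR's test of the difference in a model of all 12 libraries (adjusted p under 0.05). The values given are log2 fold changes in vivo minus those in culture. The setting, the library kit, and the sorting gate differ together and cannot be told apart. Groups of 3 libraries are too small for a test of single libraries that stand apart.

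A difference above 0 was found for 32 genes. The list starts with *Slc17a8* (5.24), *Klrb1c* (4.92), *Sbspon* (4.60), *Clu* (4.03), *Alox12* (3.62), *Efna1* (3.00), *Tm4sf1* (2.98), *Gpx8* (2.81), *Ccdc136* (2.73), *Dsg2* (2.69), *Tmem47* (2.68), and *Fkbp10* (2.62). It goes on with *Vwf* (2.35), *Wwtr1* (2.29), *Fas* (2.26), *Col4a5* (2.20), *Bmp4* (2.13), *Myom1* (2.12), *Cyp11a1* (2.0), *Amotl2* (1.91), *Sult1a1* (1.85), *Itgb3* (1.57), *Pf4* (1.5), *Egr1* (1.45), *Fhl1* (1.44), *F5* (1.37), and *Col16a1* (1.31). Smaller differences were those of *Kit* (0.99), *Ctnnal1* (0.93), *Slamf1* (0.83), *Ly6e* (0.72), and *Jun* (0.70). *Kit* and *Ly6e* fell in both settings, and by more in culture, with log2 fold changes of -1.42 and -1.24 there against -0.42 and -0.51 in vivo. *Fas* rose in vivo (1.25) and fell in culture (-1.01).

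A difference below 0 was found for 16 genes, namely *Clec10a* (-4.50), *Kcng1* (-3.43), *Gm17936* (-3.37), *Dntt* (-3.36), *Rag2* (-3.30), *Slc16a11* (-3.07), *Cnn3* (-2.63), *Epha7* (-2.21), *Gfi1* (-1.96), *Sdc1* (-1.88), *F2rl2* (-1.47), *Stag1* (-0.73), *Plk1* (-0.54), *Cdca3* (-0.51), *Cdca5* (-0.48), and *Cd34* (-0.47). *Stag1* and *F2rl2* rose in both settings and by more in culture, at 1.08 and 2.83 against 0.36 and 1.37. *Rag2*, *Klrb1c*, and *Sbspon* did not pass the filter on low counts in the culture libraries alone, so their differences rest on few counts there.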

How the results depend on the processing

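With 1749 genes called, DESeq2 called 2154, another scaling 1757 to 1803, a filter of 10 counts in every library 1812, 1 model of all 12 libraries 2086, and no filter 2829 (1429 higher, 1400 lower). The replicate block called 1678 genes and, for the difference between settings, 991 in place of 796. Same-numbered libraries correlated at only 0.024 to 0.069, and those of unlike number at -0.092 to 0.045, so the numbers are not treated as a pairing. Library shLuci 1 correlated best with shRad21 2 (0.045), shLuci 2 with shRad21 2 (0.035), and shLuci 3 with shRad21 3 (0.069). Each library left out in turn gave 951 (without shRad21 3) to 1562 genes (495 to 766 higher, 456 to 796 lower), -1.47 to -1.40 for the log2 fold change of *Rad21*, and 512 to 845 genes that differed between settings. The mitosis list then had 17 to 57 and the DNA replication list 1 to 17 genes called lower, and the stem cell list 0 to 1. The median log2 fold change was -1.29 to -1.09 for lymphoid priming and -0.97 to -0.69 for dendritic cell genes. DESeq2, upper-quartile scaling, no filter, 10 counts in every library, and the 12-library model each called 1 stem cell gene lower. Without a filter, 14 dendritic cell genes fell. With 10 counts in every library the medians were -0.78 for lymphoid priming and -0.72 for dendritic cell genes, over fewer genes tested. With shLuci 2 and 3 both left out, 924 genes were called (506 higher, 418 lower). The lists then had 1 stem cell, 1 ageing, 2 platelet, 13 mitosis, and 0 DNA replication genes called lower, and the dendritic cell median was -0.42. The other counts and medians of the 8 emphasized lists stayed within 1.5 times or the spread between libraries. Of genes that did not pass the test, *Hlf* turned to -0.00582 in the 12-library model and *Procr* to 0.33 without shLuci 2 and 3. For genes that changed sign when 1 library was left out, the ranges were -0.12 to 0.0376 for *Mcm2*, -0.0938 to 0.13 for *Hlf*, -0.24 to 0.0295 for *Stag2*, -0.0701 to 0.0309 for *Ptprc*, -0.40 to 0.0863 for *Selp*, and -0.24 to 0.11 for *Procr*. Of 109 called genes printed above, 109 kept their direction and 75 also their call under every alternative. Calls lost without 1 library and not named above were those of *Ccdc136*, *Cma1*, *Col4a6*, *Itgad*, and *Tmem47*, the last also lost with DESeq2. Depth and the number of libraries limit genes under a few CPM.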

Other observations

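Genes of stroma and endothelium, a list of 12 of which 6 were tested, rose in 1 case and fell in 1, against 5.65% and 5.32% of all genes. Their summed CPM was 139 to 160 in shLuci and 157 to 217 in shRad21. Of 5 *Hoxb* genes tested 0 rose and 1 fell, and of 8 *Gimap* genes 0 rose and 1 fell (1 higher and 1 lower in each family at an unadjusted p under 0.05, 0 and 1 by DESeq2), against 5.32% of all genes that fell, so that 1 gene in so few is near the background. Of 14 collagen genes tested 3 rose and 2 fell, against 5.65% and 5.32% of all genes.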
